A study of Mus musculus with 2 samples.

Results

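The miR-181 family was examined in small RNA libraries from mouse embryonic forebrain. Its members were taken by gene symbol, through the Ensembl identifier of each row: Mir181a-1, Mir181a-2, Mir181b-1, Mir181b-2, Mir181c and Mir181d, 6 of 1973 annotated miRNA genes. All 6 were measured and all 6 passed the minimum of 10 reads for testing. The tissue was forebrain of the B6NCrl strain at embryonic day 12.5, from embryos of both sexes. The libraries were made from RNA below 30 nt. There was 1 group of 2 biological replicates, with 120 embryos pooled in replicate 1 and 68 in replicate 2, so no treatment, genotype or age was compared. With no contrast in the design, the questions asked here were how the 3 genomic pairs of the family compare, and how genes with a mature form of their own compare with genes that share one.

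A microRNA (miRNA) is cut from a hairpin precursor that yields a 5p and a 3p arm. The arm that is loaded into an Argonaute protein finds messenger RNAs mainly through its seed, bases 2 to 8, and lowers their output. The miR-181 family is known for setting the sensitivity of the T cell receptor during thymocyte selection in the mouse, and in the brain it has been studied in neurons and astrocytes, where it bears on survival after injury.

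The 5p arms are shown first because they define the family, with the seed in capitals (RefSeq, GRCm38.p6, 5′ to 3′). Mir181a-1 and Mir181a-2 give an identical 5p arm, and so do Mir181b-1 and Mir181b-2, whereas the arms of Mir181c and Mir181d each come from 1 gene.
miR-181a-5p: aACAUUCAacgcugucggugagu
miR-181b-5p: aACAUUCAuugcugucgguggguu
miR-181c-5p: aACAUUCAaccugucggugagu
miR-181d-5p: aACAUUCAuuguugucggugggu
All 6 genes carried the seed ACAUUCA, and among the 1738 mature entries of the RefSeq table no other gene did. The matching site in a messenger RNA reads UGAAUGU. Behind the seed the forms fell into a and c on 1 side and b and d on the other. The c form lay 1 edit (1 base changed, added or lost) from the a form and 5 edits from its genomic neighbour d. The d form lay 2 edits from the b form and 4 from the a form. Likeness of the 5p arms therefore ran across the genomic pairs and not within them.

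The 3p arms are shown because they are where the copies of miR-181a and miR-181b differ, with capitals marking bases that differ from the other copy or have no counterpart in it.
Mir181a-1, 3p arm: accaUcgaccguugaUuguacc
Mir181a-2, 3p arm: accaCcgaccguugaCuguacc
Mir181b-1, 3p arm: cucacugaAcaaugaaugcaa
Mir181b-2, 3p arm: cucacugaUcaaugaaugcaaA
Of the 2 bases that differ between the a copies, 1 falls within the seed of the 3p arm, so Mir181a-1 has the seed CCAUCGA, which Mir181c also carries, against CCACCGA in Mir181a-2. The b copies share the seed UCACUGA. Mir181d has a 3p seed, CCACCGG, that no other entry holds.

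The genes lie in 3 pairs (mm10). Mir181c (ENSMUSG00000065483.1) lies at chr8:84178873-84178961 and Mir181d (ENSMUSG00000076338.1) at chr8:84178716-84178787, on the minus strand, 85 bases apart and within an intron of Nanos3 on the same strand. Mir181a-1 (ENSMUSG00000065565.1) lies at chr1:137966455-137966541 and Mir181b-1 (ENSMUSG00000065458.1) at chr1:137966639-137966718, on the plus strand and 97 bases apart. Both are in an intron of the non-coding gene Gm4258. All 80 bases of the Mir181b-1 hairpin and 11 of the 87 bases of the Mir181a-1 hairpin also fall in an exon of the lincRNA A430106G13Rik. Mir181a-2 (ENSMUSG00000065423.1) lies at chr2:38852735-38852810 and Mir181b-2 (ENSMUSG00000065578.1) at chr2:38853830-38853918, on the plus strand and 1019 bases apart, opposite to an intron of Nr6a1, and Mir181b-2 also lies opposite to an exon of Gm44144. The identifier of Mir181c has version 1 in the counted tables and version 2 in the annotation used for positions, so its counted interval may differ from the one given.

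Of 11104730 reads in replicate 1, 4333194 lay on the strand of a miRNA gene, and of 11154304 reads in replicate 2, 4397107 did. These assigned reads are the base of all levels, which are counts per 1000000 of them (CPM), with mean ± SD over the 2 replicates. Reads that matched several places, 4213961 in replicate 1 and 4224434 in replicate 2, stand in a row of their own that names no gene. They were 32.3 and 31.7 times the reads assigned to the family. How many of them carried a miR-181a or miR-181b 5p arm, and which arm the assigned reads came from, cannot be read from gene counts. The 2 highest of 18 listed neural progenitor and neuron miRNAs were Mir92b of cortical progenitors, at 19620 ± 283.3 CPM, and the neuronal Mir137, at 5207 ± 112.5 CPM. They were picked by level. Of the list, 17 had a row and none was at 0, but levels as low as 5.61 CPM occurred among them.

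The family held 3.01% of assigned reads in replicate 1 (95% exact binomial interval 2.99% to 3.02%) and 3.03% in replicate 2 (3.01% to 3.05%). These intervals, like others below, cover counting error only. When genes were grouped by the number in their symbol, the 6 miR-181 genes stood at place 7 of 853 groups, at 30186 CPM together. The share of the family hardly moved between the pools, but it was spread unevenly over the members, from 38.5% ± 0.391 of the family's reads in Mir181c to 0.201% ± 0.0280 in Mir181b-1.

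Mir181c and Mir181d, the chromosome 8 pair with 5p arms of their own, were the highest members. Mir181c had 50470 reads in replicate 1 and 50862 in replicate 2, or 11647 and 11567 CPM. Mir181d had 41185 and 43389 reads, or 9505 and 9868 CPM. The pair was at a like level in both pools, and the values of Mir181c lay above both of Mir181d. They held places 21 and 24 among all genes.

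Mir181b-2 and Mir181a-1, which come from different chromosomes, followed. Mir181b-2 had 17106 and 19780 reads, or 3948 and 4498 CPM. Mir181a-1 had 16754 and 16190 reads, or 3866 and 3682 CPM. The values did not overlap, and the means, 4223 ± 389.4 CPM for Mir181b-2 and 3774 ± 130.4 CPM for Mir181a-1, lay farther apart than either SD. The genes were nearly level in replicate 1 and farther apart in replicate 2. They held places 55 and 56.

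Mir181a-2 and Mir181b-1 were the lower copies. Mir181a-2 had 4562 reads in replicate 1 and 2711 in replicate 2, or 1053 and 616.5 CPM. Mir181b-1 had 236 and 294 reads, or 54.5 and 66.9 CPM. Both were read in each pool, far above the level of 3 counts, 0.692 and 0.682 CPM. Mir181a-2 held place 111 and Mir181b-1 place 247. No member had a read on the opposite strand in either library.

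**Figure D1:**
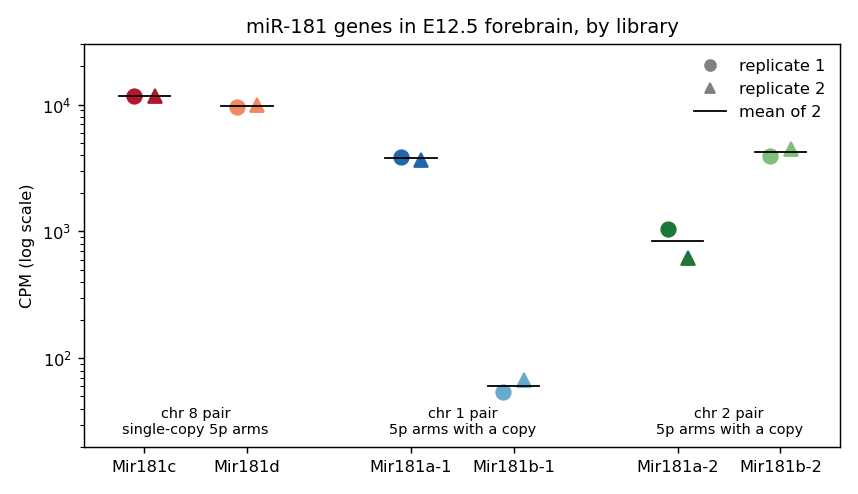
CPM of the 6 miR-181 genes on a log axis, with replicate 1 as circles, replicate 2 as triangles and the mean of both as a line, by genomic pair. Mir181c and Mir181d stand close together at 11607 and 9686 CPM, whereas the chromosome 1 pair is split between 3774 and 60.7 CPM and the chromosome 2 pair between 835 and 4223 CPM.

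Because each read covers a mature miRNA and not the hairpin, CPM was not divided by length in the values above. Per kb of annotated hairpin, the mean levels were 130418 CPM for Mir181c, 134529 for Mir181d, 47450 for Mir181b-2, 43382 for Mir181a-1, 10983 for Mir181a-2 and 758.3 for Mir181b-1. The order was the same apart from Mir181c and Mir181d, which changed places.

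**Figure D2:**
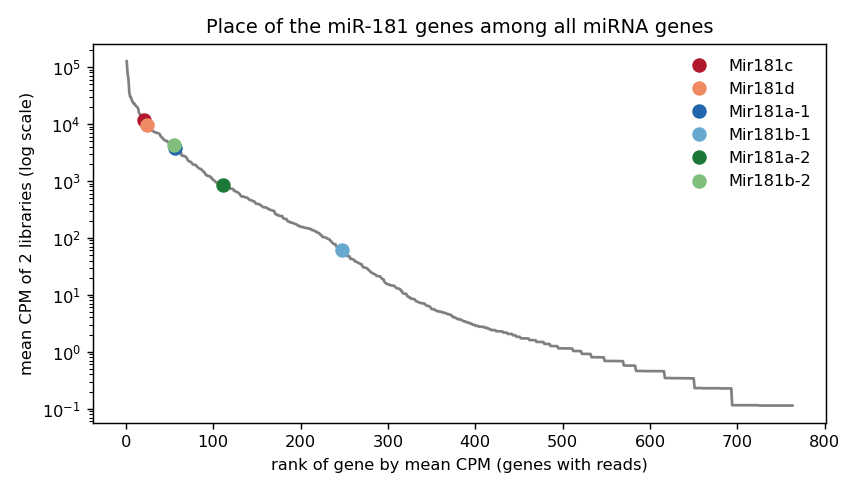
Mean CPM on a log axis against the rank of each gene with reads, with the 6 miR-181 genes marked. Mir181c and Mir181d lie at places 21 and 24, Mir181b-2 and Mir181a-1 at 55 and 56, Mir181a-2 at 111 and Mir181b-1 at 247.

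Apart from Mir181b-2 and Mir181a-1, which adjoined each other, the genes next to the members in level came from other families. With 2 libraries of 1 group no likeness over samples can be measured, so likeness here is the rank of the mean level. Mir181c lay between Mir342 at 12405 ± 14.8 CPM and Mir130b at 10082 ± 139.9 CPM. Mir181d lay between Mir18 at 9830 ± 257.2 CPM, a member of the miR-17~92 cluster, and Mir423 at 9259 ± 69.8 CPM. Its SD of 256.7 CPM covers the distance to Mir18.

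Mir872, at 4257 ± 359.9 CPM, stood just above Mir181b-2. Mir379, at 3703 ± 140.1 CPM, stood just below Mir181a-1. Mir181a-2 lay between Mir494 at 846.0 ± 91.7 CPM, which like Mir379 belongs to the imprinted Dlk1-Dio3 region, and the epithelial Mir205 at 834.2 ± 201.0 CPM. Mir181b-1 lay between Mir448 at 62.8 ± 21.5 CPM and Mir1955 at 54.1 ± 4.77 CPM. For Mir181a-2 and Mir181b-1, the distance to both genes next in rank was within the SD of the member.

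The 3 genomic pairs differed in how evenly their genes were read, and the order of a and b was opposite on chromosomes 1 and 2. As sums, the chromosome 8 pair reached 21293 ± 200.1 CPM, the chromosome 2 pair 5058 ± 81.0 CPM and the chromosome 1 pair 3835 ± 121.7 CPM. These sums varied less between pools than some of the genes within them.

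On chromosome 8, Mir181c exceeded Mir181d 1.23-fold in replicate 1 and 1.17-fold in replicate 2. Mir181c held 55.1% of the pair in replicate 1 (54.7% to 55.4%) and 54.0% in replicate 2 (53.6% to 54.3%), intervals that do not overlap. Divided by hairpin length, the ratio was 0.991 and 0.948, so the direction of this difference depends on that choice.

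On chromosome 1, Mir181a-1 exceeded Mir181b-1 71.0-fold in replicate 1 and 55.1-fold in replicate 2. Mir181a-1 held 98.6% (98.4% to 98.8%) and 98.2% (98.0% to 98.4%) of the reads of the pair. The mean log2 ratio was 5.94 ± 0.26 (SD, n = 2), many times the spread between the pools.

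On chromosome 2, Mir181a-2 was the lower gene, at 0.267 of Mir181b-2 in replicate 1 and 0.137 in replicate 2. Its share of the pair was 21.1% (20.5% to 21.6%) in replicate 1 and 12.1% (11.6% to 12.5%) in replicate 2, and the intervals do not overlap. The mean log2 ratio of -2.39 ± 0.68 was below 0 in both pools, but its size rested on the pool, since Mir181b-2 exceeded Mir181a-2 3.75-fold in replicate 1 and 7.30-fold in replicate 2. An exact test on 2 libraries cannot go below p = 0.5, so the ratios are given with their values in each pool and no test.

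Set beside neighbouring miRNA genes elsewhere, the pairs covered a wide range. Over 116 pairs of consecutive genes on 1 strand, at most 10 kb apart and both of at least 1 CPM, the median difference in log2(CPM + 1) of the mean levels was 2.65. Mir181c and Mir181d differed by 0.26, and 8 pairs were closer. Mir181a-2 and Mir181b-2 differed by 2.34, with 49 pairs closer, and Mir181a-1 and Mir181b-1 by 5.94, with 97 pairs closer. Pairs of 1 cluster share genes, so these places are a description.

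Genes with a 5p arm of their own were read more than the duplicated ones. Mir181c and Mir181d together had 21152 and 21435 CPM in the 2 replicates, against 8921 and 8864 CPM for Mir181a-1, Mir181a-2, Mir181b-1 and Mir181b-2 together. The ratio was 2.37 in replicate 1 and 2.42 in replicate 2, and the single-copy genes held 70.5% ± 0.290 of the family. Per gene, they averaged 10647 ± 100.03 CPM and the duplicated genes 2223 ± 10.2 CPM. In the duplicated genes the annotated 5p arm is the same in both copies, and the tables keep a separate row for reads that match several places. How reads of that arm were assigned is not stated, so the gene counts may understate the mature miR-181a and miR-181b forms, and the part of this in the difference was not tested.

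By copy, the genes of miR-181a together reached 4919 and 4299 CPM in replicates 1 and 2, and those of miR-181b 4002 and 4565 CPM. The higher of these gene sums thus changed with the pool. Which arm the assigned reads came from cannot be read from gene counts, so the sums are not levels of the mature forms. Mir181a-1 exceeded Mir181a-2 3.67-fold in replicate 1 and 5.97-fold in replicate 2. Mir181b-2 exceeded Mir181b-1 72.5-fold and 67.3-fold. Chromosome 1 thus held the higher a copy and chromosome 2 the higher b copy.

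The same setting was applied to all genes. Of the 1973 genes, 916 had a symbol in the RefSeq table of mature miRNAs, and they were classed by whether their arms occur, base for base, in another gene of that table. Of 53 genes with some arms shared, the class of the 4 duplicated members, 42 (79.2%) had at least 1 CPM, 6 had at least 1000 CPM, and the median was 60.7 CPM. Mir181b-2, Mir181a-1, Mir181a-2 and Mir181b-1 held places 2, 3, 8 and 27 in it, so that Mir181b-1 was the median gene.

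Of 829 genes with no arm shared, the class of the single-copy members, 409 (49.3%) had at least 1 CPM, 89 had at least 1000 CPM, and the median was 0.918 CPM. Mir181c and Mir181d held places 21 and 24 there. Of 34 genes with all arms shared, 9 had at least 1 CPM and none reached 1000 CPM, and the median was 0 CPM. No member belonged to that class. The class with no arm shared held 94.1% of assigned reads, the one with some arms shared 2.91% and the one with all arms shared 0.171%.

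**Figure D3:**
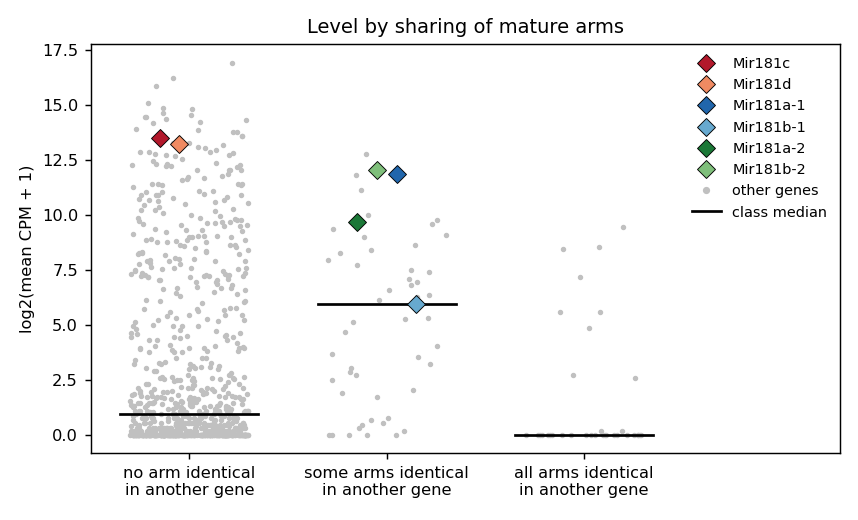
log2(mean CPM + 1) of genes with no, some or all mature arms identical in another gene, with the miR-181 genes as diamonds and class medians as lines. Mir181b-2 and Mir181a-1 hold places 2 and 3 among genes with some arms shared, and Mir181b-1 lies on the median of that class, 60.7 CPM.

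The copies of miR-181b were the most unequal among gene pairs that share 1 arm, have another arm of their own and both reached 1 CPM. In 20 cases exactly 2 genes shared a mature arm and each had another arm of its own, and in 16 of these both genes had at least 1 CPM. Their median difference in log2(CPM + 1) was 1.13, from 0.32 to 6.10. Mir181b-2 and Mir181b-1 stood first of the 16 at 6.10, and Mir181a-1 and Mir181a-2 in place 5 at 2.18. The measure takes mean levels of assigned reads, and how reads matching both copies were assigned is not stated.

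**Figure D4:**
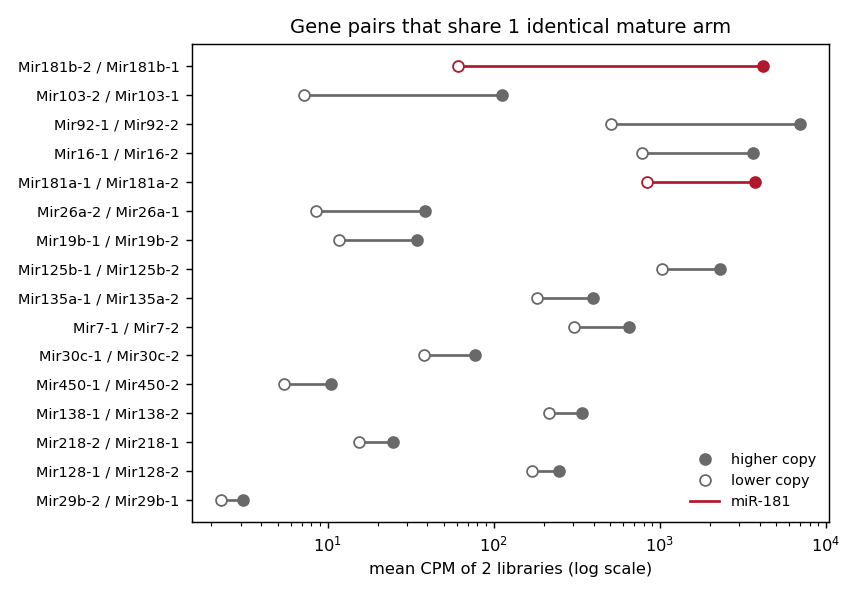
Mean CPM on a log axis of the higher copy (filled) and the lower copy (open) for 16 gene pairs that share 1 identical arm, ordered by difference, with miR-181 in red. Mir181b-2 and Mir181b-1 are farthest apart, at 4223 and 60.7 CPM, and Mir181a-1 and Mir181a-2 come in place 5.

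Between the pools, Mir181a-2 was the member that differed most, and the log2 ratios of the other members ran from -0.07 to 0.29. Each gene was compared by Fisher's exact test of its reads against the rest of its library, with Benjamini-Hochberg adjustment over 511 genes of at least 10 reads. This test compares the libraries, and with 1 library for each pool, differences between embryos, dissection and library preparation cannot be told apart. Of the 6 members, 4 passed an adjusted p under 0.05, where 32.7% of all tested genes did (167 of 511). With more reads the test passes smaller differences. Of the 511 genes, 101 had at least 1000 CPM, and no share was taken for genes of a depth like that of the members. In replicate 2, 2 members were higher, where 20.2% of genes were, and 2 were lower, where 12.5% were. None of the members differed 2-fold, a limit that 2.74% of genes passed together with the adjusted p. The median log2 ratio of replicate 2 over replicate 1 was 0.02 over the members and 0.04 over all tested genes.

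Mir181a-2 had 616.5 CPM in replicate 2, against 1053 CPM in replicate 1, with a log2 ratio of -0.77 (adjusted p = 4.72e-110). Among all 511 tested genes, 41 differed by at least this much in either direction, Mir181a-2 included. Of the 139 genes averaging at least 500 CPM, 2 were lower by this much, again with Mir181a-2 among them. The limit of 500 CPM was not a planned setting, and the count depends on it. A gene just below it, at a mean of 455.1 CPM, fell from 594.5 CPM in replicate 1 to 315.7 CPM in replicate 2. Mir181b-2, the neighbour of Mir181a-2, moved the other way, with 4498 CPM in replicate 2, against 3948 CPM in replicate 1. Its log2 ratio was 0.19 (adjusted p = 4.83e-35). The replicate ratios of the pair thus differed by 0.96 on the log2 scale. Among 112 neighbouring pairs with both genes tested the median of this difference was 0.17, and 6 pairs, this one included, reached 0.96. For Mir181a-1 and Mir181b-1 it was 0.36 and for Mir181c and Mir181d 0.06.

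Mir181d was higher in replicate 2 by a log2 ratio of 0.05 (adjusted p = 2.56e-07), a call lost with edgeR's TMM scaling (adjusted p = 0.458). Mir181a-1 was lower by a log2 ratio of -0.07 (adjusted p = 4.11e-05). Mir181c had a log2 ratio of -0.01 (adjusted p = 0.447), but passed as lower with TMM scaling, where the ratio was -0.05 (adjusted p = 2.43e-08), and with DESeq2's size factors, where it was -0.03 (adjusted p = 0.00109). Mir181b-1, with the fewest reads, had a log2 ratio of 0.29 (adjusted p = 0.0571). At the depth of Mir181c and Mir181d the test passes differences of a few percent, which are below the median absolute log2 ratio of all tested genes, 0.20.

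**Figure D5:**
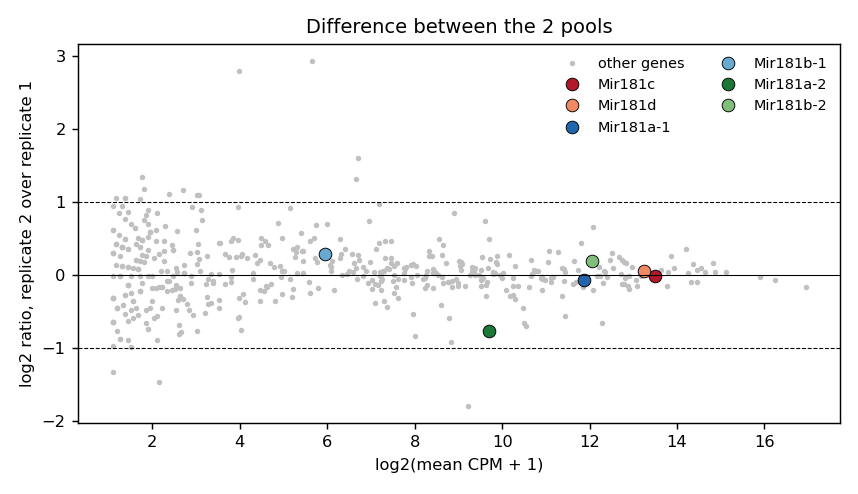
log2 ratio of replicate 2 over replicate 1 against log2(mean CPM + 1) for 511 tested genes, with the miR-181 genes in colour and dashed lines at a 2-fold difference. Mir181a-2 lies lowest of the members at -0.77, and the other members lie between -0.07 and 0.29.

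Markers of cell types that also moved between the pools are given with these values. Of 18 neural progenitor and neuron miRNAs, 17 had a row and were tested, 5 were higher and 2 lower in replicate 2 and none differed 2-fold. Together they had 31356 CPM in replicate 2, against 31997 CPM in replicate 1. Of 2 endothelial miRNAs only Mir126a had a row, with 21180 CPM in replicate 2, against 16564 CPM in replicate 1.

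The 7 mesenchymal and mural miRNAs reached 16134 CPM in replicate 2, against 13294 CPM in replicate 1, and 6 were higher, with Mir143 at 5873 ± 868.4 CPM and Mir140 at 4790 ± 270.2 CPM leading. The lymphoid and myeloid list is of interest because of the role of miR-181 in T cells. Matched by symbol, 4 of its 6 miRNAs had rows. Together these reached 452.1 CPM in replicate 2, against 372.7 CPM in replicate 1, led by Mir155 at 241.4 ± 16.9 CPM and Mir223 at 157.7 ± 35.6 CPM. Mir142b was at 0, and Mir142 and Mir146a were not analysed here. Of the 3 listed miRNAs that were tested by the same test, Mir223 was higher in replicate 2.

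The 3 erythroid miRNAs had 250.8 CPM in replicate 2, against 326.8 CPM in replicate 1, with Mir451a at 248.0 ± 63.8 CPM lower and Mir144 at 30.1 ± 7.63 CPM higher. The part of these cell types in the level of the members or in their difference between pools was not tested, and in bulk tissue fewer cells of a type and less RNA per cell cannot be told apart.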

How the data were processed

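Each deposited table holds raw read counts per miRNA gene, which the authors derived from alignments to mm10 with annotation M4 (per the file headers of the accompanying notes). Which aligner and counter were used, and how reads with more than 1 match were handled, is not given in the sources used here. The both-strand column equalled the sum of the gene-strand and opposite-strand columns, and the gene-strand column was used. The first 4 rows name no gene and stayed out of library sizes and tests. Symbols and positions came from GENCODE M21, matched by Ensembl ID without version for 1894 of 1973 rows. Mature sequences came from RefSeq, GRCm38.p6, matched by symbol, for all 6 members.

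CPM used gene-strand assigned reads, and log2 ratios log2(CPM + 1). With 1 group edgeR's quasi-likelihood test has no contrast. Libraries were compared by two-sided Fisher's exact test with Benjamini-Hochberg adjustment over 511 genes (SciPy 1.17.1, Python 3.11.15). It was also run on simulated counts with counting error only, where the most abundant genes were left unchanged. With the 2-fold minimum, 86 of 100 genes raised 3-fold, 69 of 90 lowered 3-fold and 0 of 314 unchanged genes were called. Smaller differences and variation between pools were not simulated. Alternatives used edgeR 4.0.16 and DESeq2 1.42.0. The named genes were the members, the genes next to them in mean CPM and up to 2 leading genes of each marker list. Other genes named in the plot of copies come from its rule alone. The members and lists were chosen with earlier results of these data known, and the comparisons of copies and of neighbouring pairs were added after the data were seen.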

Additional observations from a re-analysis of the deposited data

Results flagged for a closer look

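Each library held reads outside the gene counts. Those that matched several places numbered 4213961 in replicate 1 and 4224434 in replicate 2, or 46.0% and 45.5% of mapped reads. The series has no controls, and the totals are listed because they exceed the limit that 0 counts allow, as any such total would. Mir181a-1, Mir181a-2, Mir181b-1 and Mir181b-2 each carry a 5p arm that another gene repeats exactly, and the number of these reads that belong to them cannot be read from the files.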

How the results depend on the processing

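With all mapped reads as denominator the mean levels were 5496 CPM for Mir181c, 4586 for Mir181d, 1787 for Mir181a-1, 28.7 for Mir181b-1, 395.1 for Mir181a-2 and 1999.5 for Mir181b-2, and the family share was 1.43%. Without the most abundant gene in the library size they were 13286 for Mir181c, 11085 for Mir181d, 4321 for Mir181a-1 and 4831 for Mir181b-2, with a share of 3.45%. The other 2 members were higher too, by less than the SD of each. Both-strand counts gave 11290 for Mir181c, 9421 for Mir181d and a share of 2.94%. With them the other 4 members were lower too, by less than the SD of each. Per hairpin length the log2 ratio of Mir181c over Mir181d reversed to -0.0445. The single-copy over duplicated log2 ratio was 1.26 for sums and 2.26 per gene. For replicate 2 over replicate 1, TMM scaling gave -0.0531 for Mir181c and 0.0110 for Mir181d, DESeq2's size factors -0.0329 for Mir181c, and a minimum of 50 reads 0.29 for Mir181b-1 (adjusted p = 0.0404), where fewer genes were tested. The count of genes past the adjusted p and a 2-fold difference was 14, with 9 at a minimum of 50 reads and 167 without the 2-fold minimum. Of 85 recomputed values, leaving aside single libraries, 23 moved or changed side, all given here, and 1 reversed. A level, share or ratio between genes counted as moved when it differed from its main value by at least the SD of the 2 replicates. Single libraries gave log2 ratios of 0.23 to 0.29 for Mir181c over Mir181d, 5.76 to 6.12 for Mir181a-1 over Mir181b-1 and -2.87 to -1.91 for Mir181a-2 over Mir181b-2. No paired analysis was possible because there is 1 group. Depth limits Mir181b-1 most, whose counting error was 6.51% and 5.83%.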
